A study of Saccharomyces cerevisiae with 7 samples.

Results

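Both heat-shock gene peaks described here are regions of the yeast genome where chromatin immunoprecipitation followed by sequencing found the histone demethylase Rph1. They are 2 of the 731 peaks in the deposited table. They were chosen by the chaperone genes under them and by their signal in the libraries from YPL medium, low at HSP26 and high at SSA1. The HSP26 peak is chrII_379694_383475 in the table, on chromosome II from 379694 to 383475, and the SSA1 peak is chrI_138641_146935, on chromosome I from 138641 to 146935, in sacCer2 positions. The table names no genes. The genes over both peaks were taken with the definition of the members and were not looked up again, since the gene table at hand is of another build, R64. The wide SSA1 peak also covers EFB1.

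Samples were Saccharomyces cerevisiae of the CEN.PK background, mating type a, and Rph1 carried an HA tag in every strain (RPH1-HA-HYG, or RPH1-S412A-HA-HYG), so all 7 libraries are immunoprecipitations of tagged Rph1. The groups were wild type moved from YPL into the synthetic lactate medium SL for 1 h (2 libraries), a ppm1 deletion strain (ppm1::kanMX) in YPL (2 libraries), cells whose tagged Rph1 carries the substitution S412A, also in YPL (1 library) and wild type in YPL (2 libraries). YPL is a rich medium with 2% lactate as carbon source, and its cells were in log phase at an OD600 of about 1.0. S412A puts alanine in place of a serine of Rph1. No untagged or input library was analysed here, and the ppm1 deletion could not be checked in a table of Rph1 peaks.

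Rph1 is a JmjC-domain enzyme that removes methyl groups from lysines of histone H3, and its zinc fingers bind short DNA elements that resemble the stress response element of yeast promoters. Ppm1 is the methyltransferase of the phosphatase PP2A. HSP26 encodes a small heat-shock protein that binds unfolding proteins and keeps them from aggregating, and its gene is known to be induced by stress and nutrient limitation. SSA1 encodes an abundant cytosolic chaperone that folds proteins with the energy of ATP and is made in growing cells as well as under stress. EFB1, beside SSA1, encodes a translation elongation factor subunit of growing cells. In the R64 gene table HSP26 (YBR072W) stands between the protein-coding genes YBR071W and YBR072C-A, and SSA1 (YAL005C) stands between ERP2 and EFB1 (YAL003W), which is followed by VPS8.

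Signal in the table reads as reads per peak scaled to a common library size of 22000000, and signal per kb is that value divided by peak width. Implied library totals ran from 13808893 to 34820208 reads. The HSP26 peak held 4522 to 13755 implied reads, a counting error of 0.853% to 1.49%, and the SSA1 peak held 16190 to 35677, an error of 0.529% to 0.786%. These errors cover the counting of reads only. The share of reads in peaks ran from 18.6% to 24.1%, lowest in the S412A library and highest in the first SL library. Whether replicate libraries are separate cultures is not stated in the labels, and the p-values given here then cover no more than the spread between these libraries, which may be technical.

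At the HSP26 peak, Rph1 signal after 1 h in SL stood at 21914 and 14591 in the 2 libraries. In the ppm1 deletion it was 7267 and 6497, in S412A 6053, and in wild type in YPL 6441 and 7004. Both SL libraries lay above all 5 YPL libraries, as they did at 27.2% of all peaks. The 5 YPL values lay close together. The lower SL value was 2.01 times the highest of the 5 YPL values, a ratio exceeded at 7 of the other peaks. HSP26 was chosen as low in these YPL libraries, so this place among all peaks is a description.

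At the SSA1 peak, signal was 35494 and 24283 after 1 h in SL. It was 27798 and 22541 in the ppm1 deletion, 17889 in S412A, and 23061 and 24452 in wild type in YPL. The first SL library was the highest of the 7 and the S412A library the lowest, while the second SL library lay between both wild-type YPL values.

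**Figure D1:**
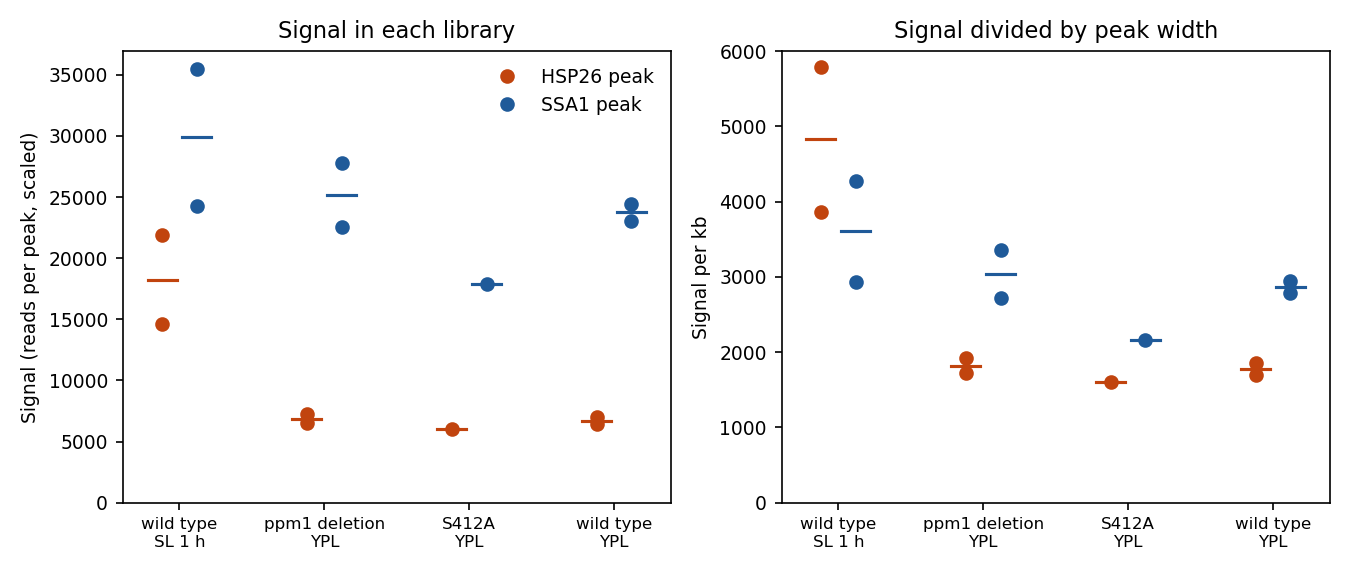
Signal (left, reads per peak scaled to a common library size) and signal per kb (right) of the HSP26 and SSA1 peaks in each of the 7 libraries, by group; points are libraries and short lines are group means. The HSP26 peak stood at 21914 and 14591 in SL and at 6053 to 7267 in the 5 YPL libraries, while SL and YPL values overlapped at the SSA1 peak.

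Both peaks were wide, the SSA1 peak more so. The SSA1 peak was 8295 bp wide, the sixth widest of the table, the HSP26 peak 3782 bp, and the median peak 2528 bp. With a mean of 25074 over the 7 libraries the SSA1 peak ranked 3 by signal, but by signal per kb, with a mean of 3023, it ranked 41. The HSP26 peak ranked 115 by mean signal (9967) and 94 by mean signal per kb (2635). A wide peak averages signal over several genes, so the table cannot say where inside it Rph1 was placed.

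Per kb, the HSP26 peak held 5794 and 3858 in SL. It held 1921 and 1718 in the ppm1 deletion, 1600.5 in S412A, and 1703 and 1852 in wild type in YPL. Over groups this was 4826 ± 1369 in SL, 1820 ± 144 in the ppm1 deletion and 1777 ± 105 in wild type in YPL (SD, n = 2 each). These YPL levels helped to choose the peak and are a description. In YPL they lay below the middle of the table, with 26.1% to 31.3% of peaks lower in the 5 libraries. The lowest percentile of peaks ended at 1195 to 1282 per kb in these 5 libraries. Without an input library, the part of the YPL signal at HSP26 that is background is not known. Ratios over it are ratios of signal, not of Rph1 binding alone. In both SL libraries the HSP26 peak ranked 9 of 731, with 98.8% of peaks lower. Set against the median peak of the same library, it stood at 2.69 and 2.12 times that median in SL, 0.860 and 0.863 times in the ppm1 deletion, 0.893 times in S412A, and 0.806 and 0.841 times in wild type in YPL.

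The SSA1 peak held 4279 and 2927 per kb in SL, 3351 and 2717 in the ppm1 deletion, 2157 in S412A, and 2780 and 2948 in wild type in YPL. Group values were 3603 ± 956 in SL, 3034 ± 448 in the ppm1 deletion and 2864 ± 119 in wild type in YPL (SD, n = 2 each). It was high in every library: 94.8% and 95.9% of peaks were lower in SL, 94.1% and 94.9% in the ppm1 deletion, 88.4% in S412A, and 85.2% and 86.2% in wild type in YPL. The peak was chosen as high in YPL, so its YPL places are a description and not a result. Among the 244 peaks at least 3.2 kb wide it ranked 19 and 23 in SL and 20 to 47 in YPL.

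**Figure D2:**
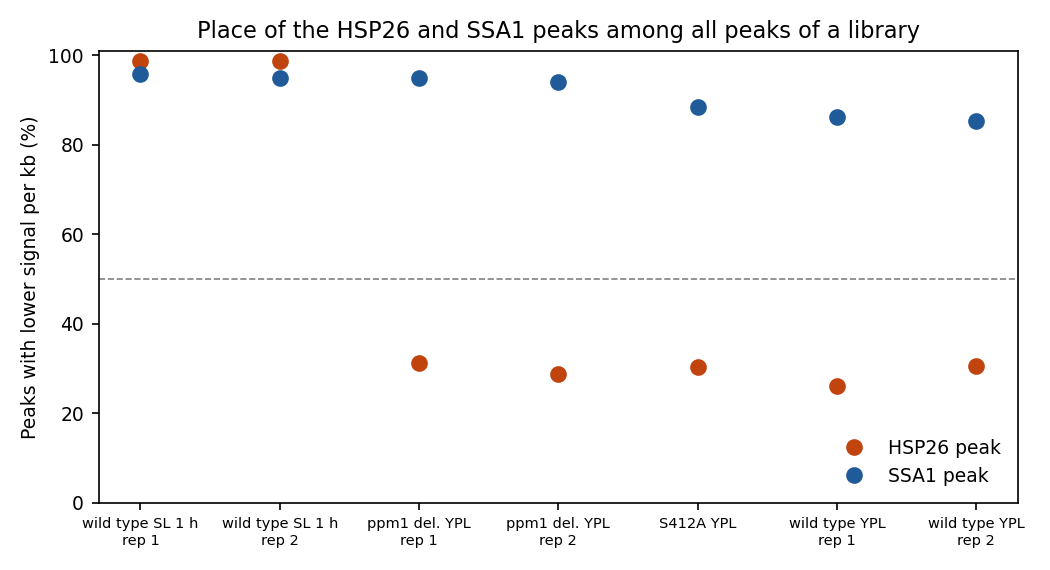
Share of the 731 peaks (percent) with lower signal per kb than the HSP26 or the SSA1 peak, in each of the 7 libraries; the dashed line marks the middle of the table. The HSP26 peak was at 98.8% in both SL libraries and at 26.1% to 31.3% in YPL, while the SSA1 peak stayed between 85.2% and 95.9%. The low and high places in YPL follow from the choice of the peaks.

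Within a library, the signal per kb of both peaks can be set side by side. In SL the SSA1 peak held 0.738 and 0.759 times the signal per kb of the HSP26 peak. In YPL, where the choice of a low and a high peak fixed the order, it held 1.74 and 1.58 times in the ppm1 deletion, 1.35 times in S412A, and 1.63 and 1.59 times in wild type. This ratio is taken inside a library, so a common factor on that library cancels. In SL the ratios were close although the first library had 1.50 times the signal of the second at HSP26 and 1.46 times at SSA1, beside a median of 1.17 times over all peaks.

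**Figure D3:**
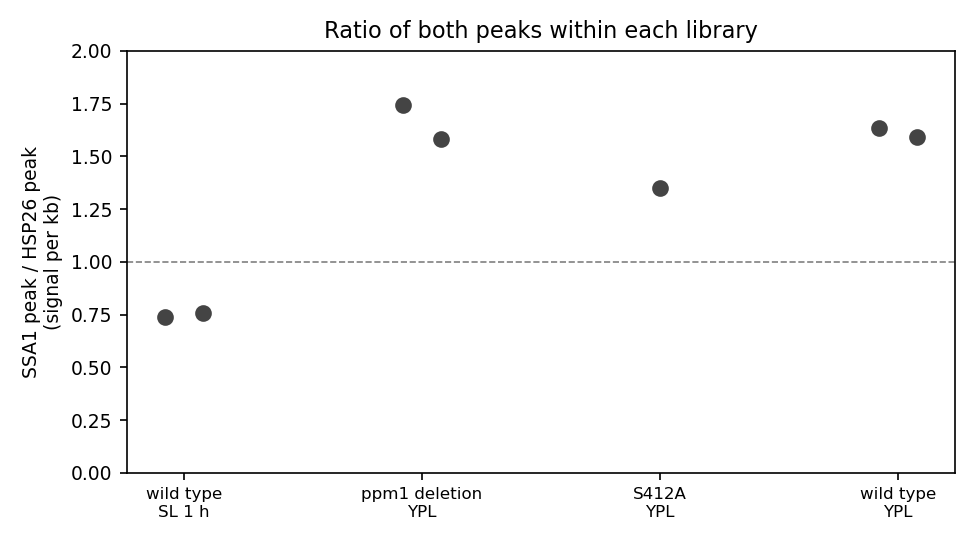
Signal per kb of the SSA1 peak divided by that of the HSP26 peak in each library, by group; each point is 1 library and the dashed line marks equal signal per kb. Both SL libraries lie below 1 (0.738 and 0.759) and the 5 YPL libraries lie at 1.35 to 1.74, above 1 by the choice of a low and a high peak in YPL.

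The switch to SL asks where Rph1 sits when cells leave a rich medium for a synthetic one. HSP26 signal averaged 18253 ± 5178 in SL and 6722 ± 398 in wild type in YPL (SD, n = 2 each), a ratio of geometric means of 2.66 (log2 1.41, SE 0.19). The 4 pairs of an SL with a YPL library gave 2.08-fold to 3.40-fold. No p is given, since the peak was chosen with its YPL level known. Both SL libraries also exceeded both wild-type YPL libraries at 33.4% of all peaks, so that alone is common. By size, the HSP26 change ranked 6 of 731, beside a median log2 change of -0.095 over all peaks. To compare peaks of like height without the wild-type libraries, peaks were split into 4 classes by signal per kb in the ppm1 deletion. In its class of 183 peaks, the second from the lowest, HSP26 had the largest change, against a class median of -0.016. The ppm1 deletion libraries are among the YPL libraries on which HSP26 was chosen as low, so this place is a description.

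SSA1 signal averaged 29889 ± 7927 in SL and 23756 ± 984 in wild type in YPL (SD, n = 2 each), a ratio of geometric means of 1.24 (log2 0.31, SE 0.18). The groups overlapped. The change ranked 174 of 731 over all peaks, and 72 among the 244 peaks at least 3.2 kb wide, whose median was 0.047. Without the first SL library the log2 change was 0.032, and without the second it was 0.58. In the class of the 183 peaks highest per kb in the ppm1 deletion the median log2 change was -0.42, and SSA1 ranked 13 from the highest. That class too rests on libraries by which SSA1 was chosen as high.

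**Figure D4:**
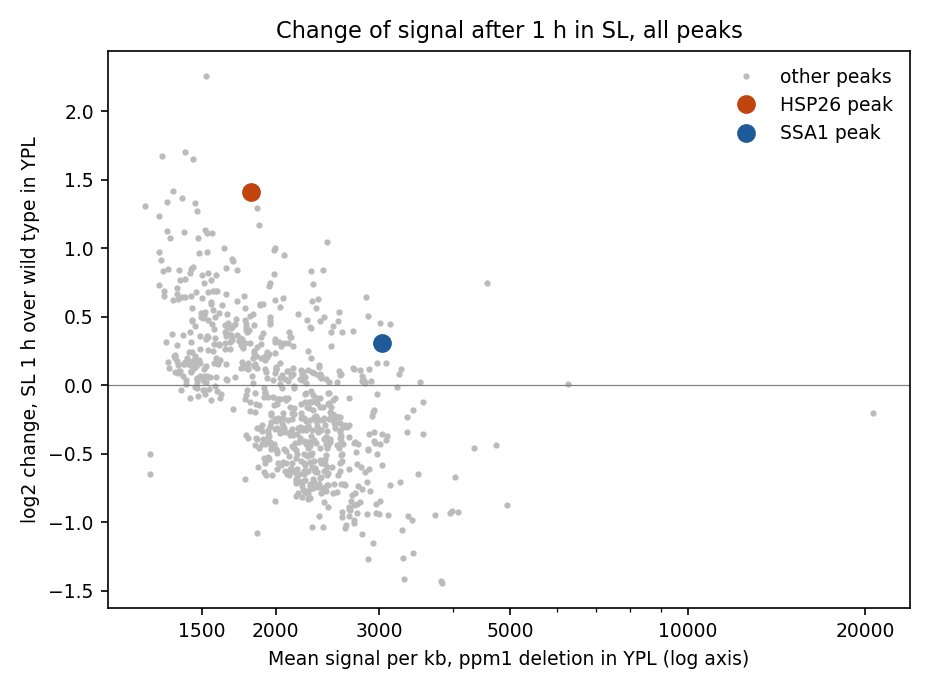
Log2 change of signal after 1 h in SL over wild type in YPL against mean signal per kb in the ppm1 deletion in YPL (log axis) for all 731 peaks, 1 point per peak. The HSP26 peak (log2 1.41) has the largest change in its class of 183 peaks, and the SSA1 peak (log2 0.31) lies above the median of -0.42 of the 183 highest peaks. The ppm1 deletion libraries are among those on which both peaks were chosen.

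Deletion of PPM1 asks whether loss of PP2A methylation moves Rph1 in YPL. Neither peak passed the test. The peaks were chosen on their level over the YPL libraries and not on differences between YPL groups, but the same libraries enter each test among YPL groups, which is a limit on every p given for them. HSP26 signal averaged 6882 ± 544 in the ppm1 deletion and 6722 ± 398 in wild type (SD, n = 2 each), a 1.02-fold ratio with a 95% interval of 0.793 to 1.32. SSA1 signal averaged 25170 ± 3717 in the ppm1 deletion and 23756 ± 984 in wild type, a 1.05-fold ratio with a 95% interval of 0.829 to 1.34. The libraries of the groups overlapped at both peaks. Limma with Benjamini-Hochberg adjustment over all peaks gave an adjusted p of 0.997 for each, in a comparison where it called 1.23% of peaks, all of them lower. Leaving out a library turned the sign: HSP26 was at log2 -0.028 when wild-type YPL replicate 1 was left out, and at -0.048 when ppm1 replicate 1 was, with SSA1 then at -0.075. The intervals do not show that the levels were alike.

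S412A asks whether a substitution in Rph1 changes its binding. Signal at HSP26 was 6053 in S412A and 6722 ± 398 in wild type (SD, n = 2), 0.901-fold with a 95% interval of 0.659 to 1.23 (log2 -0.15, SE 0.23, limma adjusted p = 0.681). At SSA1 it was 17889 in S412A and 23756 ± 984 in wild type (n = 2), 0.753-fold with a 95% interval of 0.561 to 1.01 (log2 -0.41, SE 0.22, limma adjusted p = 0.158). Neither passed, where limma called 19.4% of all peaks. The S412A value lay below both wild-type values at both peaks, as it did at 82.4% of all peaks. Over all peaks this library had a median log2 change of -0.25. It also had the lowest share of reads in peaks, and the part of that shift in the values at HSP26 and SSA1 was not tested. With median-centred libraries the log2 change was 0.087 at HSP26 and -0.17 at SSA1. With quantile normalization it was 0.19 at HSP26 and -0.37 at SSA1, the SSA1 value then under the threshold (limma adjusted p = 0.0254), with 1 S412A library and libraries that also served the choice of the peak.

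Set directly against the ppm1 deletion, S412A had 0.881-fold the signal at HSP26 (95% interval 0.644 to 1.20, limma adjusted p = 0.569) and 0.715-fold at SSA1 (0.532 to 0.959, limma unadjusted p = 0.0254, adjusted p = 0.243). Neither passed, and limma called 0.274% of peaks. The S412A value lay below both ppm1 deletion values at each peak, and at 89.6% of all peaks. With quantile normalization the SSA1 log2 difference was -0.52 and under the threshold (limma adjusted p = 0.0169). S412A has 1 library, whose spread was taken from the other groups, and the libraries compared are among those on which the peak was chosen as high.

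**Figure D5:**
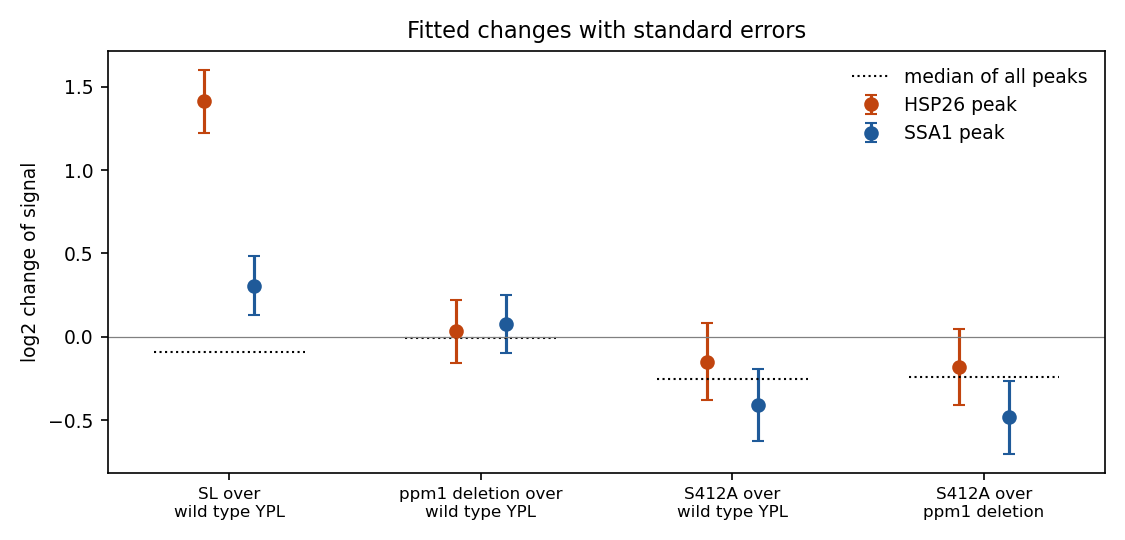
Fitted log2 change of signal at the HSP26 and SSA1 peaks in 4 comparisons; bars are 1 standard error and dotted lines the median over all 731 peaks. In SL the HSP26 peak stands at 1.41 and the SSA1 peak at 0.31, and in the comparisons among YPL groups values run from -0.48 to 0.076.

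Each peak was also taken as a share of all in-peak signal, which divides out the total in peaks. It does not remove background reads inside peaks, so it can still move with the share of reads in peaks. HSP26 took 0.414% and 0.337% in SL, 0.146% and 0.148% in the ppm1 deletion, 0.148% in S412A, and 0.135% and 0.139% in wild type in YPL. SSA1 took 0.670% and 0.561% in SL, 0.558% and 0.513% in the ppm1 deletion, 0.438% in S412A, and 0.484% and 0.485% in wild type in YPL. On this scale both SL libraries were the highest of the 7 at each peak, by a wide margin at HSP26 and a narrow one at SSA1. How many of all peaks have this order on this scale was not counted. On plain signal both SL libraries lay above all 5 YPL libraries at 27.2% of all peaks. At SSA1 the S412A library remained the lowest of the 7, whereas at HSP26 the S412A library was level with the ppm1 deletion libraries. The share of peaks with S412A lowest on this scale was not counted either. On plain signal it lay below both wild-type YPL values at 82.4% of all peaks. The S412A library also had the lowest share of reads in peaks, and the part of that in these values was not tested.

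Over the 5 YPL libraries the highest value was 1.20 times the lowest at HSP26 and 1.55 times at SSA1, where the median peak had 1.30 times. These ratios hold the spread between replicates and the shift of the S412A library as well as any difference between strains. Over all 7 libraries the same ratio was 3.62 at HSP26, the fifth largest of 731, and 1.98 at SSA1, against a median of 1.59. At each peak the lowest value was from YPL. HSP26 was chosen as low in YPL, which helps to make its ratio large, so this rank is a description.

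The peaks next to HSP26 and SSA1 were described in the same libraries. The left neighbour of HSP26, on II from 371401 to 378863 and 0.83 kb away, had 11823 ± 615 in SL and 19093 ± 1062 in wild type in YPL (SD, n = 2 each). To the right, 8.02 kb away, the peak from 391495 to 397953 had 10571 ± 617 in SL and 13203 ± 322 in wild type in YPL. Both were lower in SL, on either side of a peak that was higher. Lower signal in SL is common, with both SL libraries below both wild-type YPL libraries at 45.6% of all peaks. For SSA1, the left neighbour on I from 129005 to 132592 had 10748 ± 2512 in SL and 5026 ± 225 in wild type in YPL, and the right one from 150811 to 152248 had 2521 ± 83.8 in SL and 4816 ± 176 in wild type in YPL. The left neighbour was higher in SL, as the SSA1 mean was, and the right one lower.

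Across the 7 libraries, log2 signal at HSP26 and SSA1 had a Pearson r of 0.75, and over the 5 YPL libraries alone r was 0.946. How many pairs of peaks reach such an r in YPL was not counted. A low S412A value, below both wild-type YPL values, is shared by 82.4% of all peaks. The 5 peaks most like HSP26, with r of 0.998 to 0.9999, lay on XIII (14087 to 17409), XII (16404 to 20226), XVI (127800 to 132797), VII (269976 to 274831) and VIII (279921 to 281951). All 5 were higher in SL than in wild type in YPL, by log2 0.97 to 1.36, and an r over 0.9 with HSP26 was found at 155 peaks (21.2%). The 5 most like SSA1, with r of 0.980 to 0.986, lay on VIII (174397 to 177778), V (544165 to 547089), IV (1443316 to 1446402), XII (63427 to 66277) and X (380189 to 383949). Their log2 change was 0.28 to 0.46 in SL and -0.41 to -0.22 in S412A, and 85 peaks (11.6%) had an r over 0.9 with SSA1. These r values rest on 7 libraries in 4 groups, share every library and its depth, and are descriptions. Both lists were picked by r over these same libraries. The direction of their changes in SL and S412A therefore follows largely from the pick and is no separate result.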

How the data were processed

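The submitters' processing notes name Bowtie2, with no version, and the build sacCer2. The deposited table gives a signal value per peak and library, made by the authors; the peak caller, read filters, merging of peaks and any use of input are not given in the sources. Per the labels, fixation was with 1% formaldehyde (15 min). Within each library 100% of values were whole multiples of 1 step (tolerance 0.001), which gave the implied reads; this reading comes from the values alone, and no count model was used. sacCer2 is a build of the reference strain, not of CEN.PK. The labels of the SL libraries give different parts of the recipe and were taken as 1 medium.

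Changes were fitted with limma 3.58.1 in R 4.3.3 (empirical Bayes with a trend). The values fitted were log2 signal, with no pseudocount (0), over all 731 peaks and 7 libraries with group as the only term (3 residual degrees of freedom; the prior degrees of freedom were infinite, so each peak took the spread of the trend). P-values were adjusted over all peaks by Benjamini-Hochberg, threshold 0.05. The log2 SD so used was 0.19 at HSP26 and 0.18 at SSA1, below the peaks' own 0.25 and 0.26. These own values pool the SL pair, whose libraries differed 1.50 times at HSP26 and 1.46 times at SSA1. Within the YPL pairs libraries differed 1.06 to 1.23 times at these peaks. A single spread for all groups therefore need not suit the SL and the YPL comparisons alike. The code was tested on simulated data. All comparisons with wild type in YPL share its 2 libraries. Members and lists were chosen with earlier results of these data known. Named besides the members are the nearest peak on each side and the 5 peaks with the highest r. Alternatives were other scalings, a pseudocount, filters, left-out libraries, a replicate block, unmoderated spreads and fits of the compared groups only. Promoter motifs and chaperone genes planned for description were left out, since no sequences were at hand and the table pairs no genes with peaks.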

Additional observations from a re-analysis of the deposited data

How the results depend on the processing

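In SL the HSP26 log2 change was 1.35 to 1.48 under every alternative that kept all libraries and 1.12 to 1.71 with 1 left out; SSA1 was at 0.30 to 0.37 and 0.032 to 0.58. With 1 library left out, the ppm1 deletion over wild type gave log2 -0.048 to 0.11 at HSP26 and -0.075 to 0.23 at SSA1, S412A over wild type -0.21 to -0.090 and -0.45 to -0.37, and S412A over the ppm1 deletion -0.26 to -0.10 and -0.64 to -0.33. Neither peak passed in the ppm1 deletion under any alternative (limma adjusted p at least 0.287). Scaling turned HSP26 in S412A over wild type to 0.087 (median-centred) and 0.19 (quantile), and over the ppm1 deletion to 0.037 and 0.12. Under quantile normalization SSA1 passed, at -0.37 and -0.52. The cause was not tested.

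Peaks called in the ppm1 deletion numbered 9, against 33 (median-centred), 46 (quantile), 21 (compared groups only) and 0 (each peak's own spread; 45 at an unadjusted limma p under 0.05 in the pooled fit). Leaving out replicate 1 or 2 gave 4 or 2 (wild type in YPL), 0 or 1 (ppm1) and 24 or 23 (SL). S412A over wild type had 142, against 93 without the outermost peaks of chromosome arms, 451 (compared groups only) and 0 (own spread); leaving out replicate 1 or 2 gave 14 or 0 (wild type in YPL), 2 or 0 (ppm1) and 283 each (SL). S412A over the ppm1 deletion had 2, against 19 (median-centred), 21 (quantile), 4 without the lowest 10% of peaks, 0 without the outermost peaks, with own spread or with compared groups only, 0 lacking a wild-type YPL or ppm1 library, and 76 or 77 lacking SL replicate 1 or 2.

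The replicate block, over the 6 numbered libraries, left the ppm1 values at 0.033 and 0.076 (limma adjusted p = 0.997 each) and 8 peaks called. Replicate differences correlated over peaks at 0.14 (SL, ppm1), -0.33 (SL, wild type in YPL) and -0.44 (ppm1, wild type in YPL); no label pairs the numbers. At both peaks counting errors were at most 1.49%.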
